A study of Mus musculus with 9 samples.

Results

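The miR-143 and miR-145 hairpins lie side by side in the genome and are cut from one primary transcript. The 3 mature microRNAs described here are mmu-miR-143-3p, mmu-miR-143-5p and mmu-miR-145a-5p, named below without the species prefix, and are the rows chosen by name from the 1064 known microRNAs that were counted. With 105 predicted microRNAs, 1169 were counted in all. A hairpin gives 2 possible products, a 5p arm and a 3p arm. The partner arm miR-145a-3p was also counted, and its values are given so that both hairpins can be compared arm by arm.

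As background, miR-143 and miR-145 are best known from smooth muscle, where their transcript is driven by serum response factor with myocardin, and they hold cells in the contractile state. Fibroblasts and other stromal cells also make them, and in the gut they are expressed in mesenchymal rather than epithelial cells. From one transcript, miR-143-3p and miR-145a-5p are the usual guide arms, which are loaded into Argonaute to repress messenger RNAs. The usual passenger arms, miR-143-5p and miR-145a-3p, are mostly degraded.

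The small RNA came from serum vesicles, which were precipitated with a commercial exosome reagent, pelleted and taken up in saline. There were 3 groups of 3 libraries. HFD Sirt3 AKI mice overexpressed Sirt3, a mitochondrial deacetylase, in adipose tissue and ate a high fat diet. HFD WT mice were labelled wild type and ate the same diet, and chow WT mice were wild type on chow. The series concerns male mice. The sources used here do not give ages, the promoter behind the Sirt3 allele or any pooling of animals. The library names of the HFD WT group carry a Sirt3 knock-in code although the group is labelled wild type. Nothing in the labels says that libraries came from separate animals, so p-values measure the spread between these libraries only. Serum vesicles come from many tissues, and fewer vesicles from a cell type cannot be told apart from less of a microRNA per vesicle.

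Library totals were 1729416 to 2973432 counts in HFD Sirt3 AKI, 1953935 to 2162009 in HFD WT and 225002 to 306974 in chow WT. The mean total in HFD WT was 7.45 times that in chow WT, so depth moved with diet. Levels are given as normalised CPM, which are counts per 1000000 after scaling each library by edgeR's TMM factor. HFD Sirt3 AKI replicates 2 and 3 carry a different batch label from the other 7 libraries. HFD Sirt3 AKI replicate 2 stood apart: its level of miR-122-5p, the hepatocyte microRNA, was 25960 normalised CPM, against 5679 and 11221 in replicates 1 and 3.

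In chow WT vesicles the guide arms of the hairpins had similar read levels, and on the high fat diet they did not. miR-145a-5p and miR-143-5p fell, while miR-143-3p and miR-145a-3p did not pass the test. A call here means an adjusted p below 0.05 in edgeR's quasi-likelihood test over 414 microRNAs. In HFD WT over chow WT, 0 of the 3 members were called higher and 2 were called lower, where 16.2% of all microRNAs tested were called lower and 37.7% were called in either direction.

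miR-143-3p, the guide arm of its hairpin, had 3372, 3801 and 3518 normalised CPM in HFD WT libraries, against 2862, 3356 and 2156 in chow WT libraries. The lowest HFD WT library stood just above the highest chow WT library, and of all microRNAs tested 54.8% had groups that did not overlap. The means were 3563 ± 218 in HFD WT and 2791 ± 603 in chow WT (SD, n = 3 each). The log2 fold change was 0.35 (SE 0.25, edgeR adjusted p = 0.309), which does not exceed the spread pooled over all 9 libraries. That spread was unequal between groups. edgeR's biological coefficient of variation, a measure of spread between libraries, was 40.2% in HFD Sirt3 AKI, 14.0% in HFD WT and 10.5% in chow WT. The sign of the fold change depended on scaling. With library totals in place of TMM it was -0.38, and the median log2 fold change of all microRNAs tested was -0.57, against 0.15 with TMM. It was called higher without HFD Sirt3 AKI replicate 2, which enters only the estimate of spread and scaling here, at 0.47 (edgeR adjusted p = 0.00617). The same held in the larger batch (0.41, edgeR adjusted p = 0.00773) and without a filter on low counts (0.57, edgeR adjusted p = 0.00647).

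miR-145a-5p, the guide arm of the other hairpin, had 568, 294 and 328 normalised CPM in HFD WT libraries, against 2288, 1960 and 2537 in chow WT libraries. The groups were far apart, and among HFD WT libraries replicate 1 was the highest. The decrease was 5.69-fold (log2 fold change -2.51, SE 0.24, edgeR adjusted p = 1.52e-05). It kept its direction and its call under all 20 alternatives tried, with log2 fold changes between -3.29 and -2.30.

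miR-143-5p, the passenger arm, had 8.90, 14.3 and 7.97 normalised CPM in HFD WT libraries, against 35.7, 49.6 and 56.8 in chow WT libraries. The highest HFD WT library was below the lowest chow WT library. The decrease was 4.51-fold (log2 fold change -2.17, SE 0.52, edgeR adjusted p = 0.00711). These levels rested on few reads, with a total of 50 counts over the 3 HFD WT libraries and 50 over the 3 chow WT libraries, although the HFD WT libraries were far deeper. The call held under all 20 alternatives, with log2 fold changes between -2.91 and -1.97.

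miR-145a-3p, the passenger arm beside miR-145a-5p, had 16.7, 9.12 and 21.2 normalised CPM in HFD WT libraries, against 17.9, 18.3 and 13.4 in chow WT libraries. The groups overlapped. The log2 fold change was -0.08 (SE 0.45, edgeR adjusted p = 0.901), with a 95% interval of -1.09 to 0.92, and the chow WT level rested on 18 counts. miR-145b, a separate microRNA with a similar name, had 0 counts in HFD Sirt3 AKI, 0 in HFD WT and 4 in chow WT, and was not tested.

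**Figure D1:**
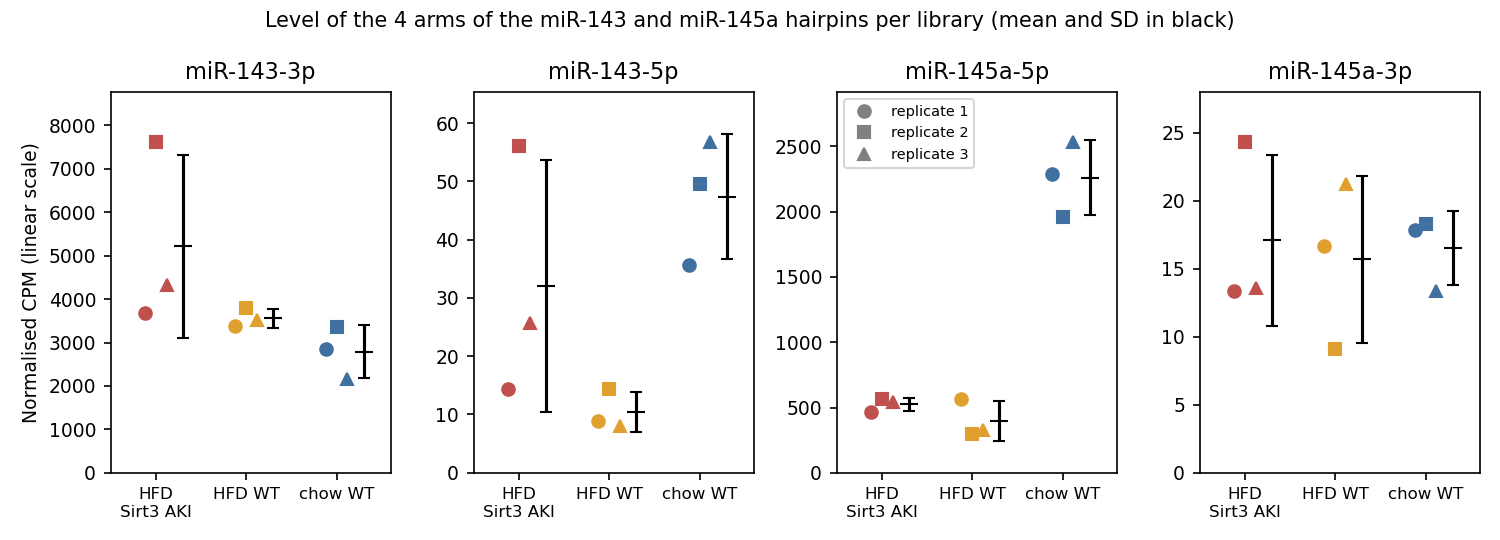
Normalised CPM (linear scale) of both arms of each hairpin in every library, by group, with the mean and SD of 3 libraries in black. miR-145a-5p lies at 294 to 568 in HFD WT and at 1960 to 2537 in chow WT, while miR-143-3p lies at 3372 to 3801 in HFD WT and at 2156 to 3356 in chow WT.

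The order of abundance changed between groups. In chow WT miR-145a-5p ranked 43rd to 58th among the microRNAs of its library and miR-143-3p ranked 39th to 49th. In HFD WT libraries miR-145a-5p ranked 88th to 114th, and miR-143-3p ranked 39th to 44th. HFD Sirt3 AKI libraries had miR-145a-5p ranked 91st to 95th and miR-143-3p ranked 23rd to 40th. Mature microRNAs are of nearly equal length, but each is captured by the library chemistry with its own efficiency, so the ranks compare groups better than they compare microRNAs.

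Ratios taken within a library need no scaling between libraries. miR-145a-5p made up 14.4%, 7.18% and 8.53% of the reads of miR-145a-5p plus miR-143-3p in HFD WT libraries, against 44.4%, 36.9% and 54.1% in chow WT libraries. In chow WT the reads of the guide arms were thus close to even, and in HFD WT miR-143-3p had more reads than miR-145a-5p in every library. As capture differs between microRNAs, only the change between groups can be read from these shares. Widths of the 95% Wilson intervals were small beside this gap, from 13.6% to 15.3% for the highest HFD WT library and from 34.8% to 39.0% for the lowest chow WT library, and they cover counting error only. The log2 ratio of miR-145a-5p to miR-143-3p was lower in HFD WT by 7.67-fold (log2 difference -2.94, SE 0.34, limma adjusted p = 4.49e-07 over 413 ratios). Of all ratios to miR-143-3p, 21.5% were called, and their median log2 difference was -0.29.

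The passenger arm of miR-143 lost ground against its own guide arm. miR-143-5p made up 0.263%, 0.376% and 0.226% of the reads of the miR-143 hairpin in HFD WT libraries, against 1.23%, 1.46% and 2.57% in chow WT libraries. The groups did not overlap, as was so for 41.7% of the 103 hairpins with both arms tested. For miR-145a the passenger arm gained share: miR-145a-3p made up 2.85%, 3.01% and 6.08% of its hairpin in HFD WT libraries, against 0.774%, 0.923% and 0.524% in chow WT libraries. The direction by role was therefore opposite in the 2 hairpins, and the direction by side was the same. With 3 libraries against 3, the exact two-sided permutation test gave p = 0.1 for each share, the smallest it allows.

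Across the 103 hairpins, the log2 ratio of the 5p arm to the 3p arm was tested in a fit chosen after the data were seen. The ratio was lower in HFD WT than in chow WT for miR-143 (log2 difference -2.58, SE 0.37, limma adjusted p = 0.00189) and for miR-145a (log2 difference -2.33, SE 0.37, limma adjusted p = 0.00227). These ranked 3rd and 4th from the lowest of 103. Over all hairpins the median was -0.03, 52 of 103 had a lower fold change for the 5p arm than for the 3p arm, and 35.0% were called in either direction. Both calls held under all 15 alternatives, with differences from -2.80 to -2.26 for miR-143 and from -2.54 to -1.97 for miR-145a. Alternatives that kept all HFD WT and chow WT libraries and the same added count could not change the difference, only its spread and its adjustment.

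**Figure D2:**
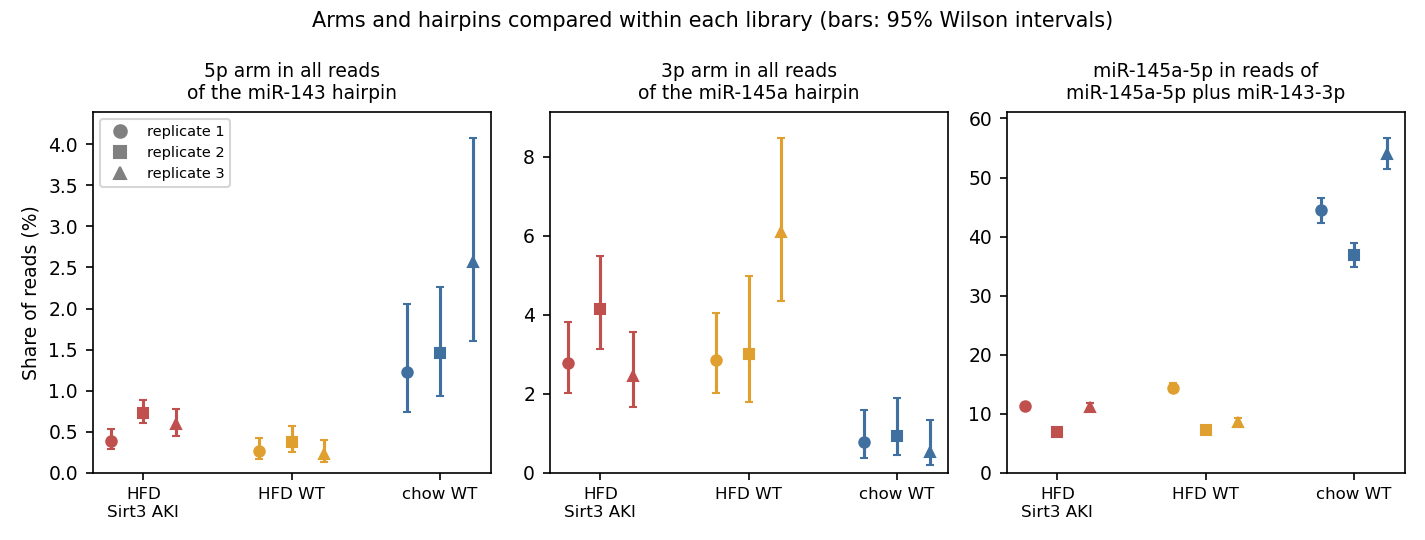
Share of reads (%) per library, by group, of the 5p arm in the miR-143 hairpin, of the 3p arm in the miR-145a hairpin and of miR-145a-5p in the sum of both guide arms, with 95% Wilson intervals. The miR-143-5p share is 0.226% to 0.376% in HFD WT and 1.23% to 2.57% in chow WT, and the miR-145a-3p share is 2.85% to 6.08% in HFD WT and 0.524% to 0.923% in chow WT.

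**Figure D3:**
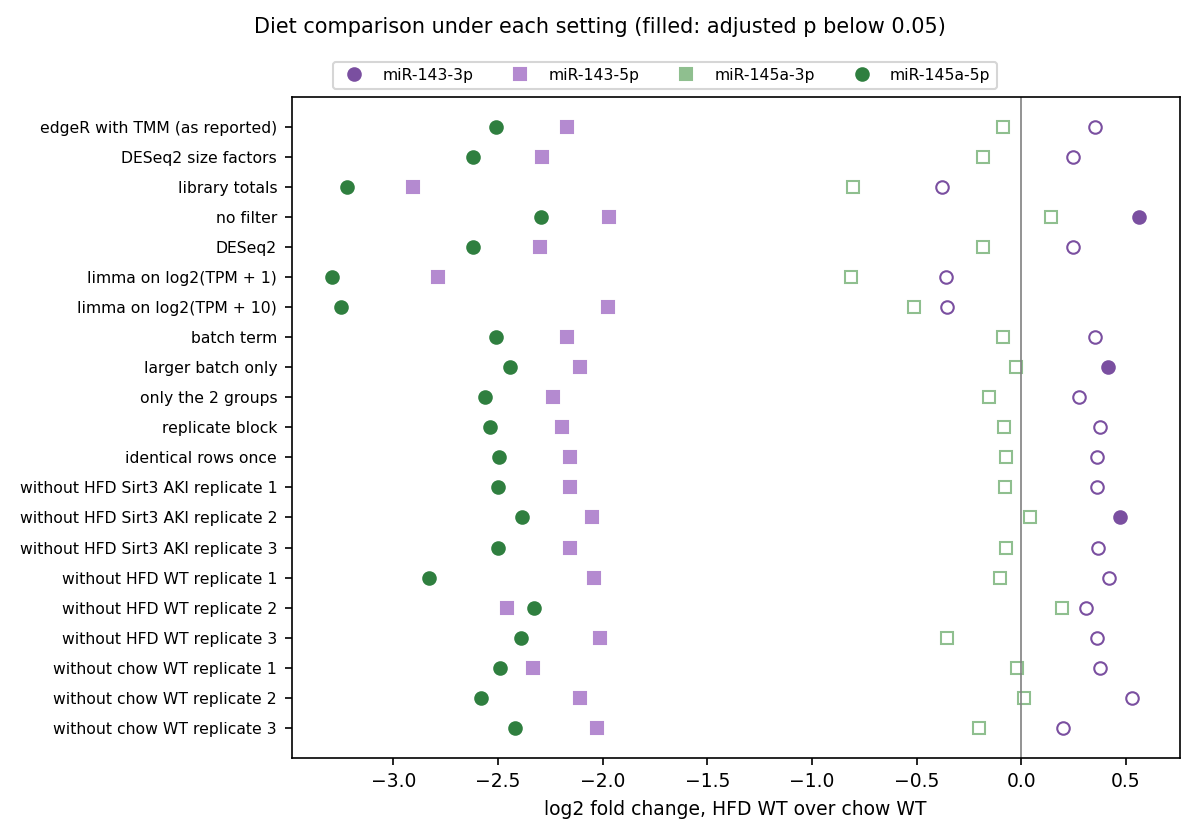
Log2 fold change, HFD WT over chow WT, of the 4 arms (horizontal axis) under each setting (vertical axis), filled where the adjusted p is below 0.05. Both 5p arms stay left of 0 and filled throughout, with miR-145a-5p between -3.29 and -2.30, while miR-143-3p runs from -0.38 to 0.57.

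Adipose Sirt3 overexpression was compared with wild type within the high fat diet. None of the 3 members was called in HFD Sirt3 AKI over HFD WT by edgeR, where 8.94% of all microRNAs tested were called, 1.45% higher and 7.49% lower. Of the 3 HFD Sirt3 AKI libraries, 2 are in the smaller batch, and the 37 calls over all microRNAs became 1 with batch as a term and 3 in a fit of these 2 groups only. There were 13 calls when HFD WT replicate 3 was left out, the fewest for any single library, and 102 when HFD Sirt3 AKI replicate 1 was, the most. At an unadjusted p below 0.05 the count was 1, miR-143-5p, where 109 of all 414 microRNAs tested passed. DESeq2 called 2 members, miR-143-3p and miR-143-5p, both higher, where it called 61 of all 414.

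miR-143-3p had 3690, 7628 and 4324 normalised CPM in HFD Sirt3 AKI libraries, against 3372, 3801 and 3518 in HFD WT libraries. Replicate 2 was the high library, and the groups overlapped. The means were 5214 ± 2114 in HFD Sirt3 AKI and 3563 ± 218 in HFD WT (SD, n = 3 each). The log2 fold change was 0.55 (SE 0.25, edgeR adjusted p = 0.190). Without HFD Sirt3 AKI replicate 2 it was 0.20, and without replicate 1 it was 0.75 and called (edgeR adjusted p = 0.0253).

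miR-143-5p had 14.4, 56.1 and 25.7 normalised CPM in HFD Sirt3 AKI libraries, against 8.90, 14.3 and 7.97 in HFD WT libraries. The groups barely failed to overlap, at 14.4 against 14.3, and 26.1% of all microRNAs tested did not overlap. The log2 fold change was 1.61 (SE 0.48, edgeR adjusted p = 0.0604). It was 0.47 with batch as a term and 0.61 within the larger batch, which holds only replicate 1 of HFD Sirt3 AKI. Without replicate 1 it was 1.97 and called (edgeR adjusted p = 0.00403).

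miR-145a-5p had 467, 562 and 545 normalised CPM in HFD Sirt3 AKI libraries, against 568, 294 and 328 in HFD WT libraries. The groups overlapped through HFD WT replicate 1. The log2 fold change was 0.40 (95% interval -0.10 to 0.90, edgeR adjusted p = 0.286). Without HFD WT replicate 1 it was 0.75 and called (edgeR adjusted p = 0.0267). The partner arm miR-145a-3p had 13.3, 24.3 and 13.6 normalised CPM in HFD Sirt3 AKI libraries, against 16.7, 9.12 and 21.2 in HFD WT libraries, with no call (log2 fold change 0.12, edgeR adjusted p = 0.862).

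The balance of the hairpins was also compared between the high fat diet groups. miR-145a-5p made up 11.2%, 6.87% and 11.2% of the summed guide arm reads in HFD Sirt3 AKI libraries, against 14.4%, 7.18% and 8.53% in HFD WT libraries. The log2 ratio differed by -0.02, with a 95% interval of -0.73 to 0.70 (limma adjusted p = 0.982). Of all ratios to miR-143-3p 2.66% were called, and their median log2 difference was -0.55. For the arms, miR-143-5p made up 0.389%, 0.730% and 0.590% of its hairpin in HFD Sirt3 AKI libraries, against 0.263%, 0.376% and 0.226% in HFD WT libraries. These shares did not overlap, as was so for 28.2% of hairpins. That log2 difference was 0.94, with a 95% interval of 0.10 to 1.78 before adjustment over hairpins (limma adjusted p = 0.254), and for miR-145a it was 0.32, with a 95% interval of -0.53 to 1.18 (limma adjusted p = 0.679). In this comparison 0 of the 103 hairpins were called.

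HFD Sirt3 AKI and chow WT differ in both diet and genotype, and each group also enters another comparison above. In HFD Sirt3 AKI over chow WT, 1 of the 3 members was called higher and 1 lower, where 20.3% of all microRNAs tested were called higher, 19.6% lower and 39.9% in either direction. miR-145a-5p had 467, 562 and 545 normalised CPM in HFD Sirt3 AKI libraries, against 2288, 1960 and 2537 in chow WT libraries. It was 4.31-fold lower (log2 fold change -2.11, SE 0.23, edgeR adjusted p = 4.13e-05) and was called lower under all 20 alternatives. miR-143-3p had 3690, 7628 and 4324 normalised CPM in HFD Sirt3 AKI libraries, against 2862, 3356 and 2156 in chow WT libraries.

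All HFD Sirt3 AKI libraries stood above all chow WT libraries for miR-143-3p. The level was 1.87-fold higher (log2 fold change 0.90, SE 0.25, edgeR adjusted p = 0.0144). This SE pools the spread of all groups, which was widest in HFD Sirt3 AKI. The call was lost with library totals (0.52, edgeR adjusted p = 0.191), with batch as a term (0.40, edgeR adjusted p = 0.304) and without chow WT replicate 3 (0.76, edgeR adjusted p = 0.0554). For miR-143-5p the value was -0.56 (log2, SE 0.48, edgeR adjusted p = 0.383). Within the larger batch that value was -1.50, and without HFD Sirt3 AKI replicate 2 it was -1.10 and called (edgeR adjusted p = 0.0320). For miR-145a-3p it was 0.03 (log2, SE 0.45, edgeR adjusted p = 0.966). The log2 ratio of miR-145a-5p to miR-143-3p was 7.76-fold lower in HFD Sirt3 AKI than in chow WT. The log2 difference was -2.96 (SE 0.34, limma adjusted p = 3.36e-07). Over all 413 ratios to miR-143-3p the median log2 difference was -0.86, and 41.9% were called. The 5p to 3p ratio was lower for miR-143 (log2 difference -1.64, limma adjusted p = 0.00971) and for miR-145a (log2 difference -2.01, limma adjusted p = 0.00439), where 32.0% of hairpins were called. In the larger batch, which holds 1 HFD Sirt3 AKI library, neither was called, at -2.14 for miR-143 (limma adjusted p = 0.0741) and -1.87 for miR-145a (limma adjusted p = 0.102). With batch as a term miR-145a was not called either (-1.87, limma adjusted p = 0.0572). Both 5p shares lay below those of chow WT without overlap, as 47.6% of hairpin shares did in one direction or the other.

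Over the 9 libraries, the members did not vary as one unit. The Pearson correlation of log2 normalised CPM was -0.54 between miR-143-3p and miR-145a-5p, 0.73 between miR-143-5p and miR-145a-5p, and 0.05 between the arms of miR-143. These are descriptions over libraries that share a group, a depth and a scaling. The microRNAs whose levels were most like each guide arm were therefore different ones. Their mature sequences from RefSeq (GRCm38.p6) are shown 5′ to 3′ because they show whether the microRNAs that vary with each guide arm share a seed, with the seed, bases 2 to 8, in capitals. Closest to miR-143-3p were the first 5, and closest to miR-145a-5p the last 3, beside miR-874-3p and a predicted microRNA.
miR-127-3p: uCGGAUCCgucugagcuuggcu
miR-203-3p: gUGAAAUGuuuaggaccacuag
miR-34a-5p: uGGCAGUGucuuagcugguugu
miR-146b-5p: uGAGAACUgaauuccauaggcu
miR-199a-3p: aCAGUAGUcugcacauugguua
miR-203b-3p: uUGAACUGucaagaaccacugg
miR-429-3p: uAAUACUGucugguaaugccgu
miR-1291: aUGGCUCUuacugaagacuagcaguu

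All 8 seeds differed. The correlations with miR-143-3p were 0.97 for miR-127-3p, 0.96 for miR-203-3p, 0.95 for miR-34a-5p, 0.95 for miR-146b-5p and 0.94 for miR-199a-3p. All 5 had their highest mean in HFD Sirt3 AKI, as miR-143-3p had, which their choice by likeness makes likely. In each of them replicate 2, the library that stood apart, was far above the other libraries of its group. For miR-203-3p the levels were 1259, 6084 and 2126 normalised CPM in HFD Sirt3 AKI replicates 1, 2 and 3, against 1041 to 1288 in HFD WT. Without that library the 5 correlations were between 0.86 and 0.90 over 8 libraries, and 1 of the 5, miR-127-3p, was still among the 5 highest. miR-199a-3p, made by stromal cells, had 4241 ± 2472 normalised CPM in HFD Sirt3 AKI, 3068 ± 265 in HFD WT and 1633 ± 304 in chow WT (SD, n = 3 each), and its counts were identical to those of miR-199b-3p.

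The correlations with miR-145a-5p were 0.98 for miR-874-3p, 0.97 for miR-203b-3p, 0.97 for miR-429-3p, 0.96 for miR-1291 and 0.96 for the predicted microRNA. All 5 were highest in chow WT, which their choice by likeness to miR-145a-5p makes likely. Without HFD Sirt3 AKI replicate 2 the correlations were between 0.97 and 0.98, with 3 of the 5 still among the 5 highest. miR-429-3p, an epithelial microRNA of the miR-200 family, had 226 ± 74.9 normalised CPM in HFD Sirt3 AKI, 155 ± 11.6 in HFD WT and 4515 ± 235 in chow WT. miR-1291 had 7 counts in HFD Sirt3 AKI, 0 in HFD WT and 10 in chow WT. The predicted microRNA had 0 counts in HFD Sirt3 AKI, 0 in HFD WT and 77 in chow WT. Both reached the level of the low count filter in chow WT only, where few reads are enough because the libraries are shallow.

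The likeness split another pair that shares a locus. miR-203-3p and miR-203b-3p come from opposite strands of one stretch of chromosome 12. miR-203-3p had 3156 ± 2572 normalised CPM in HFD Sirt3 AKI, 1172 ± 125 in HFD WT and 989 ± 264 in chow WT. miR-203b-3p had 4.95 ± 2.18 in HFD Sirt3 AKI, 1.98 ± 1.75 in HFD WT and 270 ± 72.7 in chow WT. Ranking by Spearman's rho, with ties at the fifth place included, kept 2 of the 5 for miR-143-3p, among 9 microRNAs, and 2 of the 5 for miR-145a-5p, among 5.

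Other microRNAs rich in stromal and smooth muscle cells were set beside the members. Of 15 listed, 14 were tested, and in HFD WT over chow WT 4 rose, 1 fell and 9 did not pass the test, with a median log2 fold change of -0.05 against 0.15 for all microRNAs tested. Over all microRNAs 21.5% were called higher and 16.2% lower. miR-199a-3p and miR-199b-3p, which could not be counted apart, each rose by 0.91 (SE 0.32, edgeR adjusted p = 0.0474). With identical rows counted once, 3 of 13 rose and 1 fell, with a median of -0.04, where 150 of all 409 microRNAs were called. miR-214-3p, a microRNA of the same transcript as miR-199a, rose by 1.23 (SE 0.19, edgeR adjusted p = 4.82e-04), and miR-125b-5p rose by 0.74. miR-100-5p fell by 0.48 on the log2 scale. With library totals 1 was called higher and 5 lower, where 163 of all 414 microRNAs tested were called. The list's median was then -0.79 against -0.57 for all microRNAs tested. A change of scaling shifts all log2 fold changes by nearly the same amount, so the gap between these medians stays nearly the same. Whether the list differs from all microRNAs was not tested.

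For genotype on the high fat diet, 1 of the 14 rose in HFD Sirt3 AKI over HFD WT, miR-99a-5p, by 0.62 (SE 0.15, edgeR adjusted p = 0.0319). Over all microRNAs tested 1.45% were called higher and 7.49% lower. The list's median was 0.44 against -0.02 for all microRNAs tested. The summed level of the list was 16935, 33158 and 21844 normalised CPM in HFD Sirt3 AKI replicates 1, 2 and 3, against 17135 to 19289 in HFD WT. These sums hold the same reads under both miR-199a-3p and miR-199b-3p. Each of these had 2430, 7057 and 3237 normalised CPM in HFD Sirt3 AKI, against 2905 to 3373 in HFD WT. The order of replicate 1 and the HFD WT libraries can therefore not be read from the sums. Replicate 2 was highest here as for miR-143-3p. With batch as a term, 0 of the 14 were called and the median was -0.29, against 1 of 414 called and a median of -0.19 for all microRNAs tested. Against chow WT, 20.3% of all microRNAs tested were called higher in HFD Sirt3 AKI and 19.6% lower. Of the list, 5 rose and 1 fell, with a median of 0.61 against 0.06 for all microRNAs tested. The most abundant of these were miR-125b-5p, which rose by 1.28, miR-199a-3p and miR-199b-3p, which each rose by 1.38, and miR-99a-5p, which rose by 0.75. With identical rows counted once, 4 of 13 rose and 1 fell, with a median of 0.48, where 159 of all 409 microRNAs were called. The counts called were 2 higher and 2 lower with library totals, where 169 of all 414 microRNAs tested were called.

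A second list held regulators of the contractile or proliferative state of smooth muscle, 10 microRNAs, all tested. In HFD WT over chow WT 3 rose, 2 fell and 5 did not pass the test, with a median of 0.04 against 0.15 for all microRNAs tested, of which 21.5% were called higher and 16.2% lower. miR-146a-5p, a brake on inflammatory signalling, rose by 1.45 (SE 0.13, edgeR adjusted p = 1.33e-05). The muscle microRNA miR-133a-3p rose by 0.82 and miR-21a-5p, a microRNA of proliferating and fibrotic tissue, rose by 0.79. miR-221-3p, which favours smooth muscle proliferation, fell by 0.96, and miR-204-5p fell by 0.84 on the log2 scale. With library totals 1 was called higher and 5 lower, where 163 of all 414 microRNAs tested were called. For genotype, in HFD Sirt3 AKI over HFD WT, 1.45% of all microRNAs tested were called higher and 7.49% lower. Of the 10, 1 rose, miR-222-3p, by 0.52 (edgeR adjusted p = 0.0497). That call was lost with batch as a term (0.62, edgeR adjusted p = 0.205), without a filter, with 2 groups only and with the replicate block. It was also lost when HFD Sirt3 AKI replicate 3, any 1 HFD WT library or any 1 chow WT library was left out. Against chow WT, 3 rose and 2 fell in HFD Sirt3 AKI, where 20.3% of all microRNAs tested were called higher and 19.6% lower. miR-146a-5p rose by 1.37, miR-133a-3p by 0.71 and miR-21a-5p by 0.62. miR-221-3p and miR-26a-5p had log2 fold changes of -0.81 and -0.32.

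**Figure D4:**
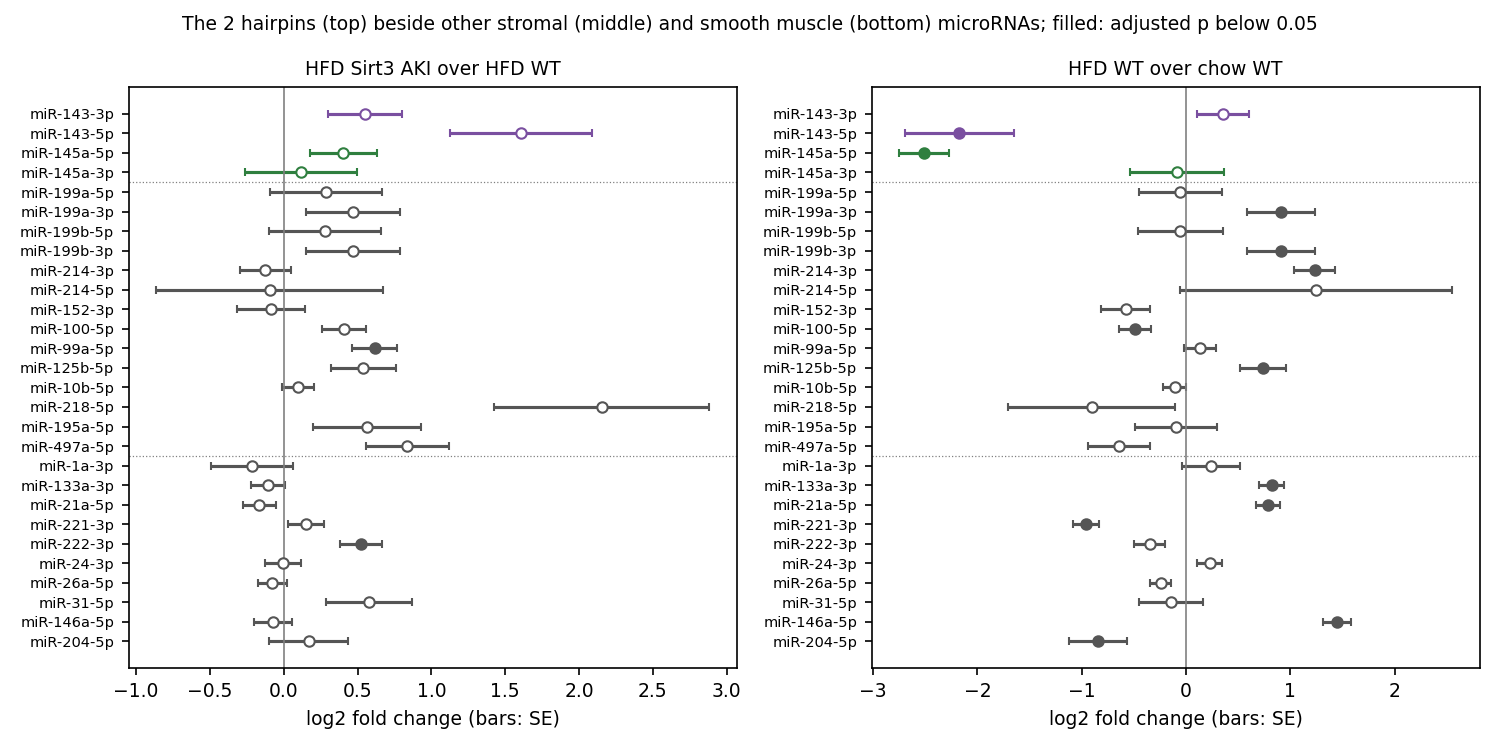
Log2 fold change with its SE of the 4 arms and of the tested members of both lists, in HFD Sirt3 AKI over HFD WT (left) and HFD WT over chow WT (right), filled where the adjusted p is below 0.05. In the diet comparison miR-145a-5p, at -2.51, and miR-143-5p, at -2.17, lie further left than the list members, of which the lowest called is miR-221-3p at -0.96.

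Marker microRNAs of other cell types moved with diet as well, and their part in the results for the members was not tested. In HFD WT over chow WT, 21.5% of all microRNAs tested were called higher and 16.2% lower. With library totals the median log2 fold change of all microRNAs tested was -0.57, against 0.15 with TMM, so small rises depend on scaling. The marker miR-133a-3p, at 0.82 with TMM, was at 0.10 with library totals (edgeR adjusted p = 0.633). Of 5 epithelial markers, miR-429-3p, miR-200a-3p, miR-200b-3p and miR-200c-3p fell in HFD WT over chow WT, with log2 fold changes of -4.87, -2.86, -2.18 and -0.58, miR-141-3p did not pass the test, and their summed level was 970 to 1107 normalised CPM in HFD WT, against 8733 to 9269 in chow WT. Both endothelial markers, miR-126a-3p and miR-126a-5p, rose by 0.87 and 0.99, with sums of 39670 to 41416 in HFD WT, against 20337 to 23173 in chow WT. Both myeloid and platelet markers, miR-223-3p and miR-142a-3p, rose by 1.59 and 0.35, at 14323 to 15908 in HFD WT, against 8485 to 9805 in chow WT. Of 3 erythroid markers miR-486a-5p rose by 1.47, and miR-451a and miR-144-3p did not pass the test, with sums of 209375 to 249141 in HFD WT, against 98361 to 117479 in chow WT.

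Of 5 striated muscle markers 3 were tested. miR-133a-3p and miR-206-3p rose, by 0.82 and 0.44, miR-1a-3p did not pass the test, and miR-208b-3p and miR-499-5p were too low to test, with sums of 10028 to 11363 in HFD WT, against 6617 to 7748 in chow WT, where miR-208b-3p was at 0. The hepatocyte marker miR-122-5p did not pass the test for diet, at 4148 to 4761 in HFD WT, against 3372 to 6511 in chow WT. Between genotypes on the high fat diet, miR-122-5p rose by 1.68 in HFD Sirt3 AKI (log2, edgeR adjusted p = 0.0412). Both endothelial markers fell in the same comparison, with sums between 27173 and 28322 in HFD Sirt3 AKI, against 39670 to 41416 in HFD WT. Of the blood cell markers, the erythroid miR-144-3p and miR-451a fell by 1.19 and 0.83 (log2, edgeR adjusted p = 0.00432 and 0.0488). The myeloid miR-142a-3p fell by 0.50 (log2, edgeR adjusted p = 0.0195). The erythroid miR-486a-5p (-0.23, edgeR adjusted p = 0.252) and the myeloid miR-223-3p (-0.19, edgeR adjusted p = 0.368) did not pass the test. Over all microRNAs tested 1.45% were called higher and 7.49% lower between these groups. With batch as a term 1 of all 414 was called. The erythroid sum was 144275 to 203193 in HFD Sirt3 AKI, against 209375 to 249141 in HFD WT. The epithelial sum was 1169, 2968 and 1444 in HFD Sirt3 AKI replicates 1, 2 and 3.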

How the data were processed

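Whole-number read counts per mature microRNA were deposited by the authors for 9 libraries. The deposited TPM values are the same counts per 1000000 of the library total, with a largest difference of 5.00e-05. Per the submitters' processing notes, Bowtie 0.12.2 and mm8 are listed without a stated role. The sources used here do not give trimming, the counting program or how reads shared by similar microRNAs were placed, and 18 microRNAs with at least 20 counts had a row identical to another's, none of them a member.

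Groups were taken from the labels, with 3 libraries each. Counts were fitted with edgeR 4.0.16 in R 4.3.3 (filterByExpr with a minimum count of 10, TMM, quasi-likelihood test), with all 9 libraries in 1 fit and Benjamini-Hochberg adjustment over 414 microRNAs. Ratios were fitted with limma 3.58.1 on log2 values with 0.5 added to each count. The fit of arm ratios was added after the data were seen. The fits were tested on simulated data. Alternatives were library totals, DESeq2 1.42.0 and its size factors, no filter, limma on log2 of TPM with 1 or 10 added, a batch term, the larger batch only, 2 groups only, the replicate block, identical rows once, and each library left out. Members and lists were chosen with earlier results of these data known. The microRNAs named are the members, their partner arm, the 5 most correlated with each guide arm, the list members called (at most 5, otherwise the 4 most abundant) and the marker sets. Wilson intervals of 95% cover counting error only. No sequence of the members is shown.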

Additional observations from a re-analysis of the deposited data

How the results depend on the processing

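Of 544 alternative values, 455 kept direction and side of the threshold, or a count within 1.5 times. For miR-143-3p, HFD WT over chow WT gave -0.38 with library totals, -0.36 from limma on TPM with either pseudocount, 0.57 without a filter (adjusted p = 0.00647) and 0.41 in the larger batch (adjusted p = 0.00773), called in the last 2. It was called in HFD Sirt3 AKI over HFD WT without a filter (0.57) and with DESeq2 (0.64). It was not called in HFD Sirt3 AKI over chow WT with library totals (0.52), limma on TPM (0.43 with either pseudocount) or a batch term (0.40). miR-143-5p was called in HFD Sirt3 AKI over HFD WT with library totals (1.98), without a filter (1.63) and with DESeq2 (1.71), and in HFD Sirt3 AKI over chow WT with a batch term (-1.70) and in the larger batch (-1.50). miR-145a-3p was 0.14 without a filter in HFD WT over chow WT, -0.23 with a batch term and -0.10 in the larger batch in HFD Sirt3 AKI over HFD WT, while HFD Sirt3 AKI over chow WT gave -0.35 with library totals, -0.39 and -0.25 from limma after adding 1 and 10 to TPM, -0.32 with a batch term and -0.12 in the larger batch. The ratio of miR-145a-5p to miR-143-3p in HFD Sirt3 AKI over HFD WT was 0.25 with a batch term and in the larger batch. In HFD Sirt3 AKI over chow WT the arm ratio of miR-143 was -2.14 in the larger batch and that of miR-145a -1.87 with a batch term or in the larger batch, none called. The causes were not tested.

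Called members of the stromal list were 8 of 13 with 2 groups only in HFD WT over chow WT. That fit called 186 of all 348 microRNAs tested. For HFD Sirt3 AKI over HFD WT the list had 4 of 14 called with library totals (47 of all 414) and 4 of 15 with no filter (55 of 1169). DESeq2 called 5 of 14 (61 of 414), and limma on TPM called 3 of 14 after adding 1 or 10 (40 and 43 of 414). There were 0 of 14 with a batch term (1 of 414) or 2 groups only (3 of 372). In HFD Sirt3 AKI over chow WT 3 of 14 were called with a batch term (124 of 414). The phenotype list in HFD Sirt3 AKI over HFD WT had 2 of 10 called with library totals or limma on TPM with 10 added. It had 0 without a filter, with a batch term, 2 groups only or the replicate block. The replicate block called 31 of all 414. By Spearman's rho, 2 and 2 of the most alike to miR-143-3p and miR-145a-5p were shared, and without HFD Sirt3 AKI replicate 2, added after seeing the data, 1 and 3.

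Leaving out 1 library gave, in HFD WT over chow WT, 0.20 to 0.53 for miR-143-3p, -2.46 to -2.01 for miR-143-5p, -2.83 to -2.33 for miR-145a-5p, -0.36 to 0.19 for miR-145a-3p, and 1 to 6 and 4 to 7 called in the stromal and phenotype lists. For HFD Sirt3 AKI over HFD WT it gave 0.20 to 0.75, 0.96 to 1.97, 0.24 to 0.75 and -0.19 to 0.41 in the same order, -0.25 to 0.31 for the ratio of miR-145a-5p to miR-143-3p, -0.039 to 0.55 for the miR-145a arms, and 0 to 7 and 0 to 2 in the lists. For HFD Sirt3 AKI over chow WT it gave 0.67 to 1.11, -1.10 to -0.18, -2.18 to -2.01 and -0.15 to 0.20, and -1.86 to -1.32 for the miR-143 arms. Fits on 1 HFD Sirt3 AKI library assume that it varies like the other groups.

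Same-numbered libraries did not deviate together (correlations of -0.08 to 0.19), so the numbers were not taken to pair samples. With the replicate block, miR-143-5p in HFD Sirt3 AKI over HFD WT was 1.48 (edgeR adjusted p = 0.0480), and calls over all microRNAs were 154, 31 and 161, against 156, 37 and 165 without it, in the 3 comparisons. Depth limits the passenger arms most, with 50 counts of miR-143-5p in each wild-type group and 18 of miR-145a-3p in chow WT.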
